A study of Mus musculus with 8 samples.

Results

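The inducible GTPases described here are 10 mouse genes, 9 of the immunity-related GTPase (IRG) family and 1 of the very large inducible GTPase (GVIN) family. They were selected on gene symbol (Irgm1, Irgm2, Igtp, Iigp1, Tgtp1, Tgtp2, Ifi47, Gm12250, Gm4951 and Gm4070) from the 28239 symbols of the count table, and chosen by their family name once the Alox15-/- against WT log2 fold changes were already known. Naïve CD4+ T cells were isolated by negative selection from the spleens of 4 wild-type (WT) mice and of 4 Alox15-/- mice, which carry a germline deletion in the lipoxygenase gene Alox15, and both groups carried the label of a C57BL/6 background. The methods give an age of 10 to 12 weeks and both sexes for the mice of the whole study, without the sex of the mice behind these libraries. The WT mice came from a commercial supplier and the Alox15-/- line from another, and no agent other than the differentiation mix was given. Cells of both groups spent 2 days in culture toward regulatory T cells (Tregs) on beads that engage CD3 and CD28, together with TGF-beta at 5 ng/ml and IL-2 at 100 U/ml, and RNA was counted, according to the methods of the study, by 3′ end sequencing, in which a transcript is read near its 3′ end, whereas the labels name a small RNA kit. The comparison asks which transcripts differ in early Tregs that develop without ALOX15.

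IRG proteins are GTPases that cells make after interferon-gamma, and many also after type I interferon. They assemble on the membrane of vacuoles that hold intracellular parasites or bacteria and take part in breaking these vacuoles open. The family has a regulatory branch, the GMS proteins Irgm1, Irgm2 and Igtp, in which a methionine replaces the usual lysine of the nucleotide-binding loop and which sit on the cell's own membranes and hold the other branch inactive there. The effector branch, the GKS proteins, keeps the lysine and includes Iigp1, Tgtp1, Tgtp2, Ifi47 and the protein assigned to Gm12250. GVIN proteins are far larger GTPases that respond to the same cytokines, and their function is poorly known. In T cells, Irgm1 is known for a role in survival after interferon-gamma.

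The libraries held between 3723151 and 6952596 counts in the Alox15-/- group and between 4810125 and 9538962 in the WT group. Levels are given in CPM, the count of a gene relative to the scaled total of its library, with n = 4 mice per group. Alox15 itself was at 63.7 to 70.5 CPM in the libraries labelled Alox15-/- and at 1.88 to 9.02 CPM in WT libraries, against the label, and since reads from 3′ ends, if the libraries are of that kind, need not fall in the deleted part of a gene this count does not check the deletion. The direction of every difference below therefore rests on the labels. Defining CD4 T cell markers (summed level 1585 to 2006 CPM in the Alox15-/- libraries and 1855 to 2162 in WT) and Treg markers (1664 to 1820 and 1755 to 1951 CPM) were detected in every library. Fitted levels in the Alox15-/- group were lower for 3 and higher for 2 of the 5 CD4 T cell markers. Of the 5 Treg markers, 4 were lower and 1 higher, and 0 of either list passed the threshold. Cd4 itself was at 210 to 297 CPM in the Alox15-/- libraries and at 328 to 352 CPM in WT. Summed markers of 6 other cell types were higher in all 4 Alox15-/- libraries than in all 4 WT libraries. They were the erythroid markers (907 to 3486 against 32.9 to 122 CPM, 5 of 5 tested genes past the threshold), the myeloid markers (40.7 to 162 against 12.3 to 15.5, 4 of 4), the NK and gamma-delta T cell markers (86.0 to 164 against 33.3 to 51.2, 4 of 6), the mast cell and basophil markers (133 to 323 against 57.2 to 81.8, 5 of 6), the eosinophil markers (20.3 to 72.5 against 1.25 to 6.72, 2 of 2) and the neutrophil markers (11.8 to 277 against 3.92 to 7.35, 3 of 4). Among the defining markers of these lists, Ncr1, Klra8, Adgre1, Cd14, Alas2, Ear1, Ear2, Siglecf and S100a9 were at 0 in at least 1 library. B cell markers were lower in the Alox15-/- libraries (5.55 to 7.56 against 8.31 to 19.3 CPM), and CD8 T cell and dendritic cell markers overlapped. The part of these cells in the GTPase levels was not tested, and in bulk RNA a change in the number of cells and a change in the RNA per cell cannot be told apart.

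The genes of the family lie together in a few places. On chromosome 11 of the GRCm38 build, Irgm1 (48861968 to 48871683, minus strand), Tgtp1 (48985327 to 48994172, minus), Tgtp2 (49057194 to 49064206, minus) and Ifi47 (49076587 to 49096974, plus) form one cluster, and Gm12250 (58187739 to 58189012, plus), Igtp (58199556 to 58207591, plus) and Irgm2 (58199618 to 58222782, plus) form another. The annotated spans of Igtp and Irgm2 overlap on the same strand, and 162 of the exonic bases are shared, none of them within 500 bases of either 3′ end. Gm12250 is listed by GENCODE as a processed pseudogene and the others as protein coding.

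Promoter windows are shown for 5 genes of the chromosome 11 clusters, because the motifs through which interferon reaches these genes lie side by side in 4 of them. The sequences are from RefSeq (GRCm38.p6), 5′ to 3′ on the strand of the gene, and end before the start that RefSeq gives. RefSeq starts Igtp at the same base as GENCODE and Tgtp2 within 6 bases, but it starts Irgm1, Tgtp1 and Irgm2 further downstream, by 263, 1926 and 15359 bases, so these 3 windows lie inside the GENCODE spans above. Capitals mark a gamma-activated site, GAS (letters TTCNNNGAA), and an interferon-stimulated response element, ISRE, a motif of IRF proteins (letters GAAANNGAAA). In the first 4 windows the first capitals are the GAS and the second the ISRE, and in Irgm1 the capitals are 2 overlapping ISRE matches with no GAS. The windows lie at chr11:58214887-58214937 for Irgm2 (plus strand), chr11:58199496-58199546 for Igtp (plus), chr11:49064258-49064308 for Tgtp2 (minus), chr11:48992299-48992349 for Tgtp1 (minus) and chr11:48871421-48871465 for Irgm1 (minus).
Irgm2: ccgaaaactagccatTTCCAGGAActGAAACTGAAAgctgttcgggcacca
Igtp: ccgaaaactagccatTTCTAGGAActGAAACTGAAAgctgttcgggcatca
Tgtp2: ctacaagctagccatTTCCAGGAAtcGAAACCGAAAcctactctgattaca
Tgtp1: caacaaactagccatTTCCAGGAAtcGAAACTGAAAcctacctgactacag
Irgm1: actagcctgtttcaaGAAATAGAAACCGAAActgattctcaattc

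The windows of Irgm2 and Igtp were identical at 49 of 51 bases, and those of Tgtp1 and Tgtp2 at 39 of 51. A GAS with 2 bases between it and an ISRE was found in Irgm2, Igtp, Tgtp1 and Tgtp2, and in 5 of the 32851 RefSeq promoters of 300 bases searched on both strands (0.0152%). The 1 promoter of these 5 outside the list was that of Gm12185, an IRG relative whose annotated span overlaps that of Tgtp1, while its RefSeq promoter (chr11:48927133-48927432) is a different stretch from the Tgtp1 promoter (chr11:48992197-48992496). Alone, the GAS letters were present in 8.3% of all promoters and the ISRE letters in 3.44%. Promoters were listed for 7 of the 10 genes, and of these, 5 held a GAS and 6 an ISRE. In Gm12250 both ISRE matches lay on the opposite strand, and Ifi47 held neither motif in this window. No promoter was listed for Iigp1, Gm4951 and Gm4070. These matches are letters in a window and say nothing about binding in these cells. The search fixed the spacing and order of the pair to those of Irgm2, Igtp, Tgtp1 and Tgtp2, so its share of all promoters tests nothing.

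**Figure D1:**
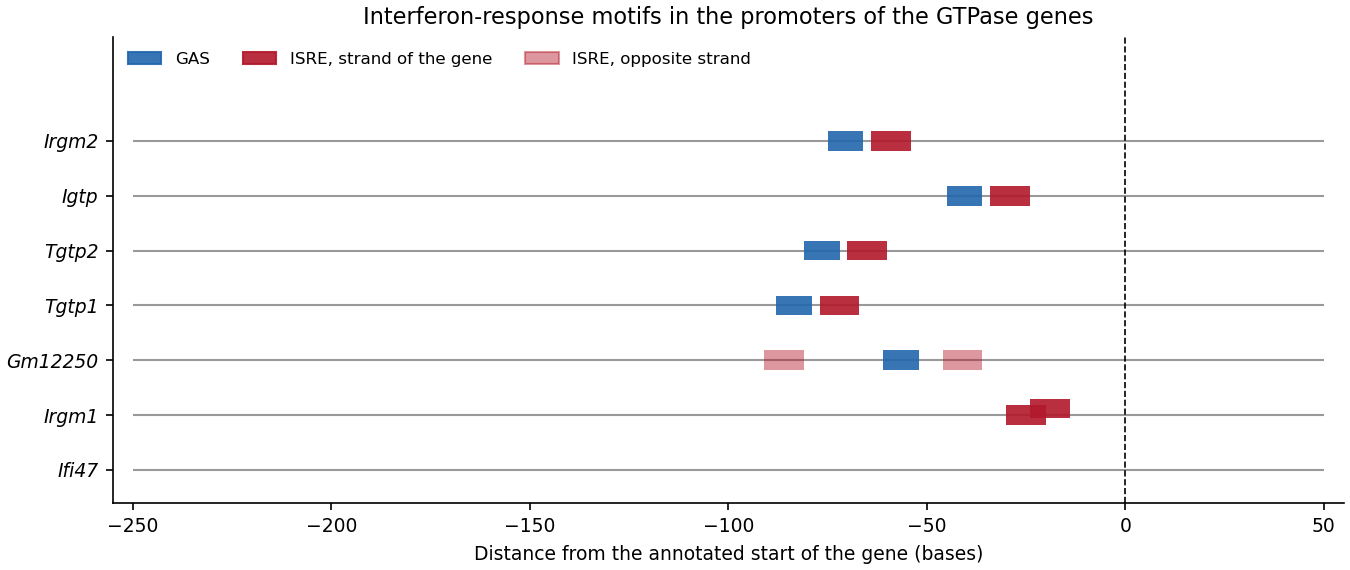
Positions of GAS matches (blue) and ISRE matches (red, pale where on the opposite strand) relative to the RefSeq start of each gene, in bases, for the 7 GTPase genes with a listed promoter. Irgm2, Igtp, Tgtp2 and Tgtp1 each show a GAS followed by an ISRE before the start, Irgm1 shows 2 overlapping ISRE matches, and Ifi47 shows none.

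Of the 10 genes, 8 passed the filter of 2 CPM in at least 4 libraries, and Gm12250 and Tgtp1 did not. All 8 had a higher fitted level in the Alox15-/- group, with log2 fold changes from 0.11 to 1.72 and a median of 0.82, beside a median of -0.0075 over the 12700 genes tested. In edgeR's quasi-likelihood test over all genes (Benjamini-Hochberg, threshold 0.05), 3 of the 8 passed, Gm4070, Irgm2 and Tgtp2, while 1.24% of all tested genes passed in either direction and 1.05% passed as higher. For 4 of the 8 (those 3 and Gm4951) every Alox15-/- library lay above every WT library, which was so for 2.74% of all tested genes. The genes were listed with this contrast in view, so these shares describe the list and test nothing.

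**Figure D2:**
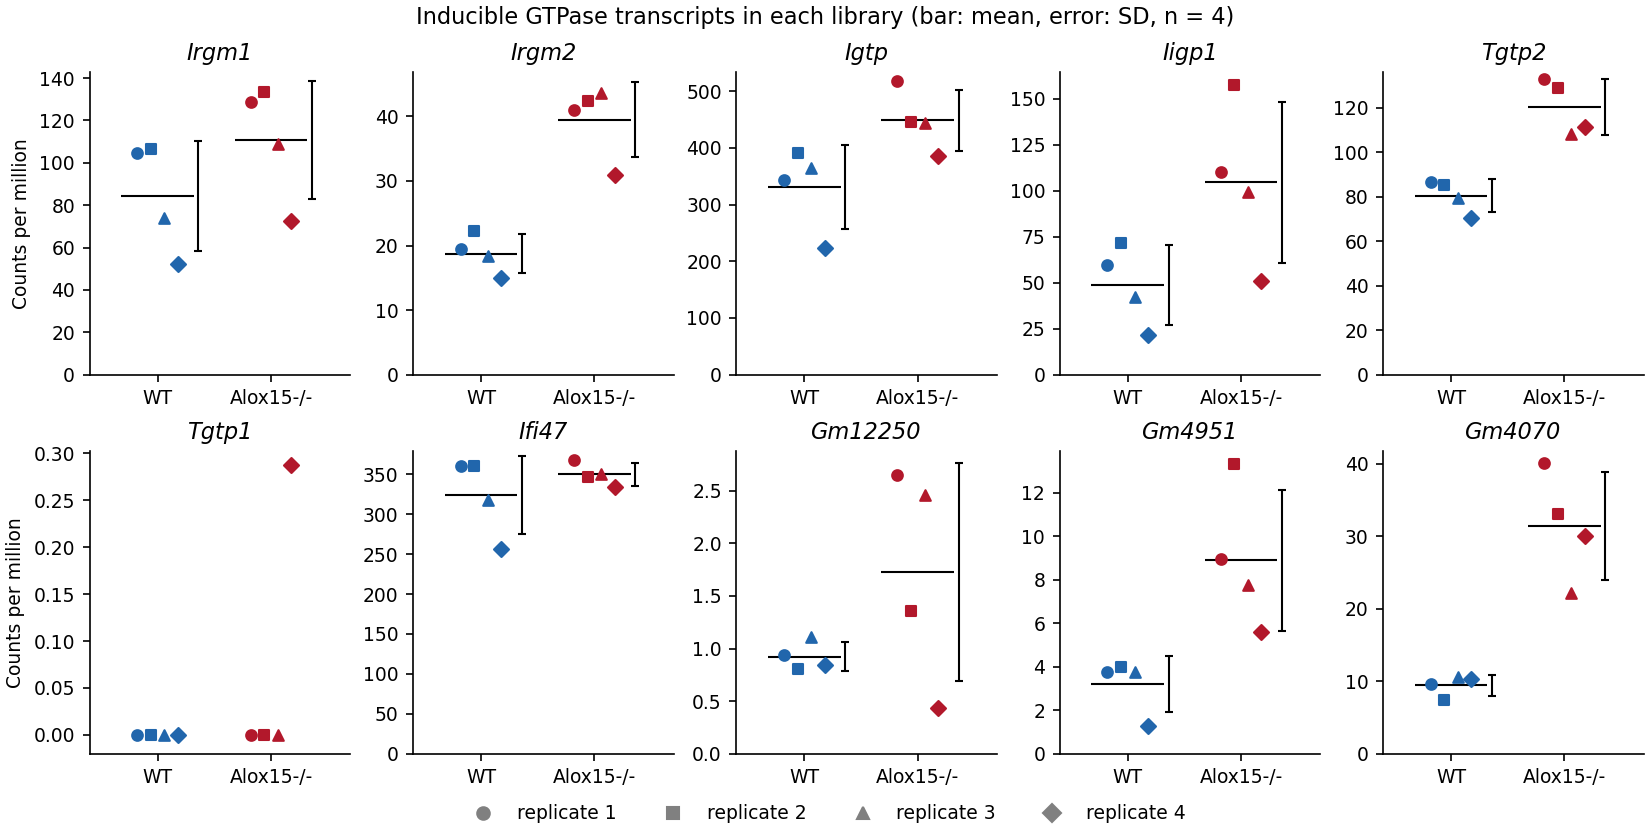
Level of each of the 10 GTPase transcripts in every library (CPM, y axes start at 0 except for Tgtp1, where only the points are drawn), with the mean and SD of the 4 WT (blue) and 4 Alox15-/- (red) libraries. The groups are apart for Irgm2, Tgtp2, Gm4951 and Gm4070, and replicate 4 is the lowest point of its group in most panels.

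Among the regulatory GMS genes, Irgm2 was the one that passed the threshold. Irgm2, whose protein sits on the Golgi and holds effector IRGs inactive, was at 41.0, 42.3, 43.7 and 30.9 CPM in the Alox15-/- libraries and at 19.4, 22.3, 18.4 and 14.9 CPM in the WT libraries. The lowest Alox15-/- library was above the highest WT library, the means were 39.5 ± 5.81 and 18.7 ± 3.04 CPM (SD), and the log2 fold change was 1.06 ± 0.15 (SE). Igtp, the regulator of the endoplasmic reticulum encoded just upstream of Irgm2, was at 519, 446, 443 and 386 CPM in the Alox15-/- libraries and at 343, 390, 365 and 224 CPM in the WT libraries. Only the Alox15-/- library of replicate 4 fell below the highest WT library, and the log2 fold change of 0.44 ± 0.15 did not pass the threshold. Igtp did pass in 1 of 14 other settings, the one with no filter on low counts. Irgm1, the regulator of the Golgi and lysosomes, was at 129, 133, 109 and 72.4 CPM against 104, 106, 73.8 and 52.5 CPM, so that the groups overlapped (0.38 ± 0.21, not past the threshold). The nearly identical motif windows of Irgm2 and Igtp stood beside a 2.09-fold higher fitted level of Irgm2 and a 1.35-fold higher one of Igtp. Whether the GMS genes differ from each other in fold change was not tested.

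Among the effector GKS genes, Tgtp2 was the one that passed the threshold. Tgtp2, an effector that loads onto pathogen vacuoles, was at 133, 129, 108 and 111 CPM in the Alox15-/- libraries and at 86.4, 85.4, 79.6 and 70.3 CPM in the WT libraries. The groups did not overlap (120.2 ± 12.4 against 80.4 ± 7.37 CPM, mean ± SD), and the log2 fold change was 0.58 ± 0.11. Without the Alox15-/- library of replicate 1 or of replicate 2 it no longer passed. Its copy Tgtp1 had 2 counts in the Alox15-/- library of replicate 4 and 0 in each of the other 7. The last 500 bases of the Tgtp1 and Tgtp2 transcripts are identical and the whole transcripts are 99.8% identical over 2811 aligned bases, so reads of these genes can hardly be told apart, and reads of the 3′ ends not at all, and the row named Tgtp2 may hold reads of both. The relative Gm12185 shares 223 of the 3205 exonic bases of Tgtp1 on the same strand and was at 542 to 604 CPM in the Alox15-/- libraries and at 432 to 573 CPM in the WT libraries. None of the shared bases lie in the last 500 bases of Tgtp1. With the counts of Tgtp1 and Tgtp2 added into 1 row, the log2 fold change was 0.58 and still past the threshold. With those of Gm12185 added as well, it was 0.26 and not past the threshold.

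Iigp1, the best studied effector and among the first to reach the vacuole of Toxoplasma, was at 110, 158, 99.1 and 51.2 CPM in the Alox15-/- libraries and at 59.7, 71.8, 42.4 and 21.4 CPM in the WT libraries. Its fitted log2 fold change of 1.08 ± 0.32 was as large as that of Irgm2, but the lowest Alox15-/- library lay below 2 WT libraries and it did not pass the threshold. It did pass with edgeR's exact and likelihood-ratio tests, with no filter on low counts and with the replicate number as a block. It also passed without the Alox15-/- library of replicate 4. Its SD was 43.7 CPM around a mean of 104.6 CPM in the Alox15-/- group, and 21.9 CPM around 48.8 CPM in WT. Ifi47 was at 368, 347, 351 and 334 CPM against 360, 361, 318 and 257 CPM, which is the smallest difference of the 8 (0.11 ± 0.11). Gm12250 was close to the limit of detection, with 11, 5, 13 and 3 counts in the Alox15-/- libraries and 6, 5, 11 and 4 counts in the WT libraries. It was not tested.

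Gm4951 lies next to Iigp1 on chromosome 18 (60212080 to 60247820, with Iigp1 at 60376027 to 60392634, both on the plus strand). Their transcripts are 86.2% identical over 1280 aligned bases, and no other transcript matched either over 300 of the last 500 bases at 95% identity. Gm4951 was at 8.93, 13.3, 7.75 and 5.61 CPM in the Alox15-/- libraries and at 3.76, 4.00, 3.73 and 1.26 CPM in the WT libraries. The groups did not overlap, but with a log2 fold change of 1.40 ± 0.33 it stayed just short of the threshold. It passed in 7 of 13 other settings, DESeq2 among them, and without the Alox15-/- library of replicate 4. In both groups the library highest for Gm4951 was also the highest for Iigp1, and the lowest was the lowest for both.

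Gm4070, the very large GTPase, showed the largest difference of the list. Gm4070 (chromosome 7, 105895139 to 105953967, minus strand) was at 40.1, 33.1, 22.1 and 30.1 CPM in the Alox15-/- libraries and at 9.56, 7.37, 10.6 and 10.3 CPM in the WT libraries. The lowest Alox15-/- library was above the highest WT library, and the log2 fold change was 1.72 ± 0.19, or 3.28-fold. Its neighbour Gvin1, the founding gene of this family (106156556 to 106215326, minus strand), was at 37.9, 31.5, 19.1 and 28.6 CPM against 11.3, 8.81, 12.1 and 7.77 CPM, with a log2 fold change of 1.52 ± 0.21 (edgeR adjusted p = 0.000834). The last 500 bases of both transcripts are identical and the whole transcripts are 99.97% identical over 9005 aligned bases. The near-equal levels of both rows therefore cannot be assigned to one gene or the other, and they count as 1 measurement of the pair.

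The genes next to the clusters were counted as well, beside the 1.24% of all tested genes that passed the threshold. Within 1 Mb of the cluster from Irgm1 to Ifi47, 0 of 15 other tested genes passed the threshold, and their median log2 fold change was 0.039. Around Gm12250, Igtp and Irgm2 the threshold was passed by 1 of 25, Galnt10, which was lower in the Alox15-/- libraries. Around Gm4951 and Iigp1 the count was 0 of 13, and around Gm4070 it was 1 of 14, Gvin1, whose reads cannot be told from those of Gm4070. The 7 genes on chromosome 11 share the chromosome with Alox15 (70344152 to 70352031, minus strand) at a distance of 12.1 to 21.5 Mb, whereas Iigp1, Gm4951 and Gm4070 are on other chromosomes. Outside the windows above, other genes within 30 Mb of Alox15 passed the threshold. Some were higher (Xaf1, 2.23, and Spns3, 2.89, on the log2 scale) and some lower (Ubb, -0.63, and Lyrm7, -1.60). Their share of the genes tested there was not computed, and any part of this stretch in the GTPase levels was not tested.

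**Figure D3:**
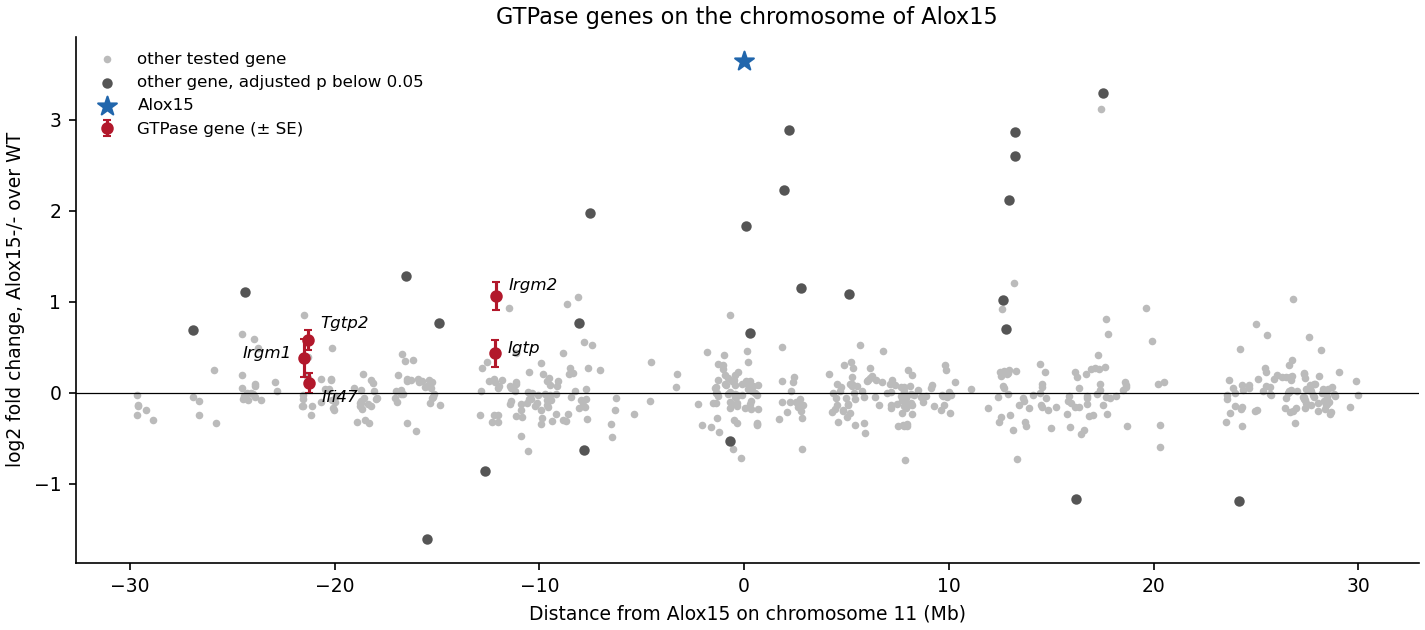
Log2 fold change (Alox15-/- over WT) of tested genes within 30 Mb of Alox15 on chromosome 11 against their distance from Alox15 in Mb, with the 5 tested GTPase genes in red (± SE), Alox15 as a star and other genes past the threshold in dark grey. Irgm2 and Igtp lie 12.1 Mb from Alox15 and Irgm1, Tgtp2 and Ifi47 about 21.3 to 21.5 Mb, all above 0, with most of their neighbours near 0.

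Of the other IRG and GVIN genes, 14 of the 20 listed symbols were in the table and 6 were tested. Gvin1 alone passed the threshold, and Gm2619 (0.51 ± 0.26), Gm8995 (0.48 ± 0.24), 9930111J21Rik2 (0.39 ± 0.34) and Gm12185 (0.20 ± 0.10) had positive log2 fold changes that did not. Irgq, a relative that is not induced by interferon, had a log2 fold change of -0.40 ± 0.18 and did not pass. The guanylate-binding proteins, GTPases induced by the same cytokine that act with the IRG proteins at the vacuole, had 6 tested genes, of which 5 (Gbp2, Gbp5, Gbp7, Gbp8 and Gbp9) rose by 0.81 to 1.22 on the log2 scale in the Alox15-/- libraries and Gbp3 (0.45 ± 0.22) did not pass. This count fell to 2 without the Alox15-/- library of replicate 1 or the WT library of replicate 1, and to 3 without either library of replicate 2. Over all tested genes, 1.05% passed as higher. The antiviral Mx1 and Mx2 were too low to test, at most at 1.01 CPM in any library.

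Interferon-gamma signalling is the path that induces these GTPases. Of 11 genes of this path, all tested, 0 passed the threshold in edgeR, 4 had an unadjusted p under 0.05 and 9 had a positive log2 fold change, with a median of 0.24. Over all 12700 genes, 1.24% passed, 996 had an unadjusted p under 0.05 and 6122 a positive log2 fold change. Ifng, the cytokine itself, was at 21.7, 10.6, 9.46 and 5.18 CPM in the Alox15-/- libraries and at 4.55, 6.57, 2.02 and 7.77 CPM in the WT libraries. The lowest Alox15-/- library lay below 2 WT libraries, and the log2 fold change of 1.20 ± 0.42 did not pass (edgeR adjusted p = 0.385). Irf1, a factor that acts at ISRE motifs, had a log2 fold change of 0.35 ± 0.16 (edgeR adjusted p = 0.635). With DESeq2, limma-voom and edgeR's exact and likelihood-ratio tests the count was also 0, and with no filter on low counts it was 1, Ifng.

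Of 8 tested genes of type I interferon signalling, 2 passed the threshold as higher in the Alox15-/- libraries, beside 1.05% of all tested genes. Log2 fold changes were positive for 4 and negative for 4 of these 8, with a median of 0.033. Irf7, the amplifier of type I interferon production, rose by 1.26 ± 0.26 (edgeR adjusted p = 0.0226), and Usp18, which removes ISG15 and restrains the type I receptor, rose by 1.42 ± 0.28 (edgeR adjusted p = 0.0166). The receptor chain Ifnar1 (0.20 ± 0.16) and the signalling factors Stat2 (0.08 ± 0.27) and Irf9 (-0.04 ± 0.10) did not pass. The count past the threshold was 0 without the Alox15-/- library of replicate 3 or the WT library of replicate 1, and 1 without the Alox15-/- library of replicate 1 or 2 or the WT library of replicate 2. With the replicate number as a block it was also 1. Of 10 tested interferon-gamma targets outside the GTPases, 9 had a positive log2 fold change, 3 an unadjusted p under 0.05, and 0 passed. Among these were the immunoproteasome gene Psmb8 (0.34 ± 0.15), the peptide transporter Tap1 (0.04 ± 0.11) and the chemokine Cxcl10 (1.58 ± 0.41, edgeR adjusted p = 0.104). By other settings this count was 2 with no filter (Cxcl9 and Cxcl10), 1 with the exact and likelihood-ratio tests and 0 with DESeq2 and limma-voom. The list of 16 autophagy genes holds conjugation genes, which steer IRG proteins to the vacuole, and others such as Becn1 and Ulk1. All 16 were tested, with log2 fold changes from -0.16 to 0.14. In this list 0 passed the threshold by any of these tools and 0 had an unadjusted p under 0.05.

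**Figure D4:**
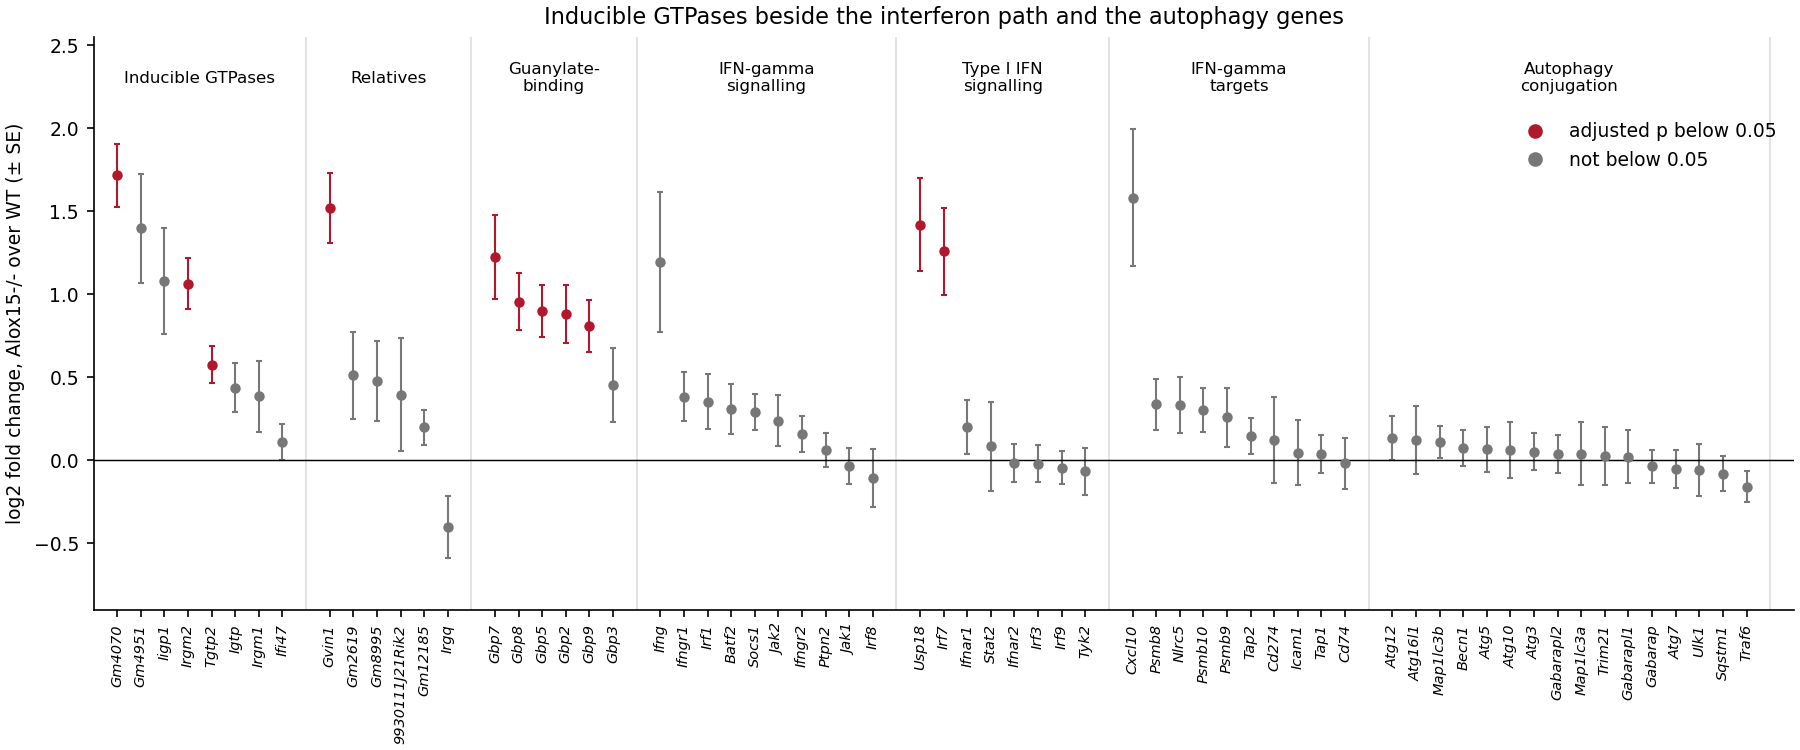
Log2 fold change (Alox15-/- over WT, ± SE) of tested genes of the 7 lists with tested genes, in red where the edgeR adjusted p was below 0.05. The inducible GTPases span 0.11 to 1.72, the guanylate-binding proteins 0.45 to 1.22, and the autophagy genes stay between -0.16 and 0.14.

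Within each group the same libraries were low for most of the GTPase transcripts. The Alox15-/- library of replicate 4 was the lowest of its group for 6 of the 8 tested transcripts, and the WT library of replicate 4 was the lowest of its group for 7 of 8. Their mean deviations from the group mean were -0.35 and -0.49 on the log2 CPM scale. At the other end, the WT library of replicate 2 was highest for 6 of 8, with a mean deviation of 0.24. In the Alox15-/- group, Tgtp2 and Gm4070 were lowest in the library of replicate 3, and in the WT group Gm4070 was lowest in the library of replicate 2. Over the 28 pairs of transcripts the correlation of these deviations across the 8 libraries averaged 0.60 and ranged from -0.37 to 0.98, values that share library, depth and cell makeup.

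Some genes of the interferon lists followed this spread. Over the 8 libraries, the deviations of Gbp2 correlated with the mean deviation of the 8 transcripts at r = 0.91, those of Tap1 at 0.90, those of Irf1 at 0.89 and those of Ifng at 0.16. Within the WT group, Ifng was highest in the library of replicate 4, in which 7 of the 8 GTPase transcripts were lowest. The 5 genes most like the mean of the GTPase transcripts over the 12692 other tested genes were Atp8a1 (r = 0.99), AC153524.4 (0.99), Csrp1 (0.98), Ppp2r5a (0.98) and Cpne3 (0.98), none of which passed the threshold between the genotypes. With 8 libraries and this many genes such values describe the libraries and were not tested. For all 6 other cell types named above, the Alox15-/- library of replicate 4 had the lowest summed markers of its group. The WT library of replicate 4 had the highest for 5 of these 6. A link between these marker sums and the GTPase levels was not tested.

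**Figure D5:**
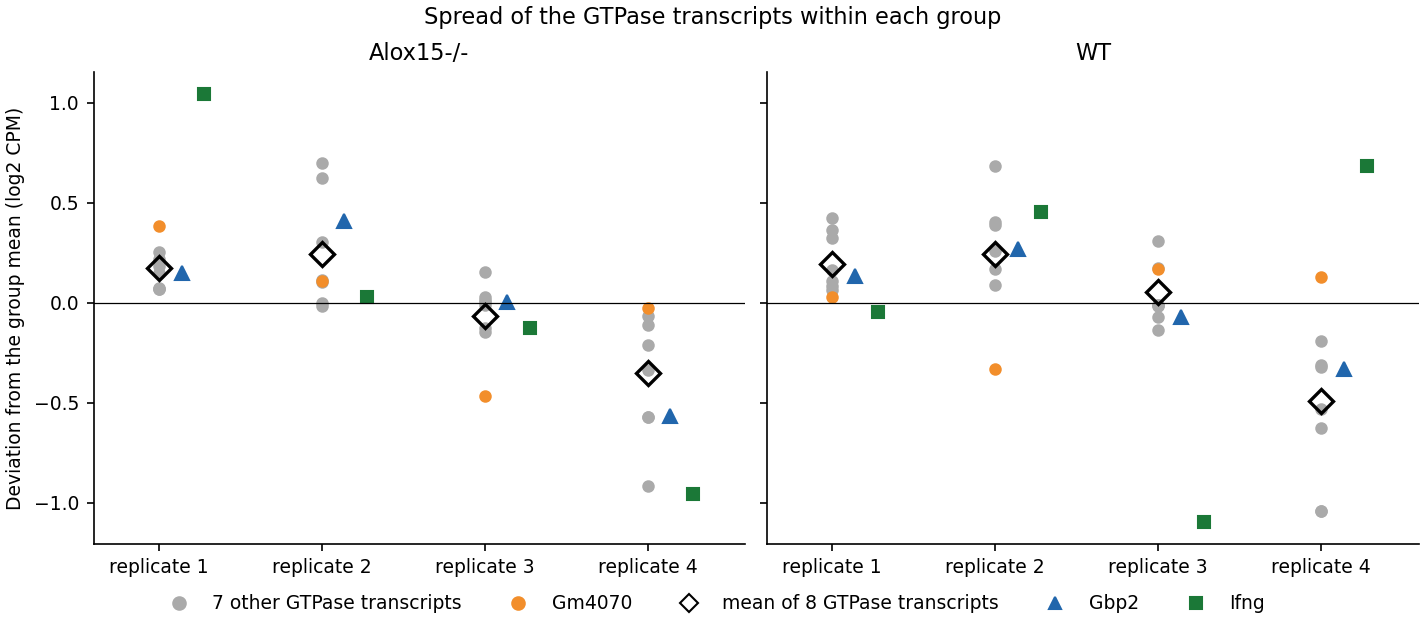
Deviation of each GTPase transcript from the mean of its group (log2 CPM) in the 4 Alox15-/- and 4 WT libraries, with the mean of the 8 transcripts (diamonds), Gm4070 (orange), Gbp2 (triangles) and Ifng (squares). The mean lies at -0.35 and -0.49 in the libraries of replicate 4, Gbp2 is likewise below 0 there, and Ifng is above 0 in the WT library of replicate 4.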

How the data were processed

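The authors deposited 1 table of raw counts per gene symbol for the 8 libraries. The labels name a small RNA kit and the paper's methods a 3′ end protocol (MACE), so the library kit is not settled, and the submitters' processing notes list GRCm38, Bowtie and edgeR without versions. Counting by strand is not given in the sources used here.

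From the deposited counts, CPM with TMM scaling, a filter of at least 2 CPM in at least 4 libraries (12700 genes) and edgeR 4.0.16 quasi-likelihood tests (R 4.3.3, group only, two-sided, Benjamini-Hochberg over all genes, threshold 0.05) were computed. The biological coefficient of variation was 14.5%. Counts from 3723151 to 9538962 per library set the precision, and each library is 1 mouse. DESeq2 1.42.0, limma 3.58.1 and other filters, scalings and libraries left out were the alternatives. The fit was checked on simulated counts. Positions are from GENCODE M21, promoters from RefSeq, and transcript ends were aligned with blastn 2.17.0. Genes named are all 10 GTPases, Alox15, the genes past the threshold and up to 3 further interferon path genes of each list, and the 5 genes nearest in within-group pattern, plus Gm12185, relatives and list members named for their values afterwards. The genes and lists were chosen with earlier results of these data known. Deviations are from group means of log2 CPM with a prior count of 2. Some marker and path genes are not reported here by name.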

Additional observations from a re-analysis of the deposited data

Results flagged for a closer look

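Gm4951 in the WT library of replicate 4 was at 1.26 CPM, far below the nearest WT library at 3.73 CPM. The gap was 0.901 of the range of the WT group, above Dixon's critical value for a group of 4, which chance exceeds in about 1 of 20 groups. The same library was the lowest of its group for 7 of the 8 tested GTPase transcripts. Without it the log2 fold change of Gm4951 was 1.18 and still short of the threshold.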

How the results depend on the processing

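The median log2 fold change of the GTPase genes stayed positive under all 22 alternatives, from 0.59 to 0.91 over 14 settings and from 0.68 to 0.89 with 1 library left out, and none of the genes changed sign. The number of GTPase genes past the threshold was 3 with all libraries, 6 with no filter on low counts, 5 with edgeR's exact test, 5 with its likelihood-ratio test and 2 to 5 with 1 library left out. It was 5 without the Alox15-/- library of replicate 4, where Iigp1 and Gm4951 also passed. Irgm2 and Gm4070 passed in all 14 settings and with each of the 8 libraries left out. Tgtp2 was lost without the Alox15-/- library of replicate 1 (0.53) or 2 (0.54). Gm4951 passed in 7 of 13 settings and Iigp1 in 4 of 14. The number of all genes past the threshold was 158. It was 388 with no filter, 217 with the exact test, 224 with the likelihood-ratio test and 100 with at least 10 counts in every library. With 1 library left out it was 86 to 172 (95, 86 and 93 without the Alox15-/- libraries of replicates 1, 2 and 3, and 105 without the WT library of replicate 2). Over all 12700 genes, the deviations of libraries of the same number correlated at 0.07, 0.17, -0.18 and -0.02, so the numbers were not taken to pair mice, although the mean deviation of the GTPase transcripts was alike in both libraries of replicates 1 (0.18 and 0.20), 2 (0.24 and 0.24) and 4 (-0.35 and -0.49). With the replicate number as a block, 146 genes and 5 GTPase genes passed, Iigp1 and Gm4951 added, and 1 in place of 2 type I interferon genes. The cause of these changes was not tested. Gm12250 and Tgtp1 fell under the filter on low counts, and with no filter neither passed the threshold. The sums of Gm4070 with Gvin1 and of Tgtp1 and Tgtp2 with Gm12185 were chosen after seeing the data.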
